A study of Mus musculus with 18 samples.

Results

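The transcription factor gene Xbp1 and 9 genes of ER-associated degradation (ERAD) and ER protein handling were followed in mouse liver. With earlier results of these data known, but with no rule on values, 10 symbols were listed by name. Of these, 9 had a row among the 23930 genes of the deposited files (Xbp1, Herpud1, Sel1l, Syvn1, Derl1, Derl2, Edem1, Pdia5 and Dnajb9), and all 9 passed the filter on low values that kept 11720 genes. The remaining symbol, Sec61b, was not analysed here. All mice carried floxed Yap alleles (Yap fl/fl). At the age of 8 weeks they were given an adeno-associated virus driven by TBG, a hepatocyte promoter. The virus delivered GFP (control, AAV-TBG-GFP), Cre (knockout, AAV-TBG-CRE) or YAP joined to EGFP (overexpression, AAV-TBG-YAP). The promoter aims the change of Yap at hepatocytes, and bulk liver RNA does not show which cells were altered. Cre virus was given at a dose of 0.5 and the other viruses at 2, counted alike in genome copies. From 2 weeks after the virus, and after 5 days of acclimation, each genotype was kept for 4 weeks on a Lieber-DeCarli liquid diet with ethanol (ethanol-fed) or without it (pair-fed). Ethanol-fed mice then received a gavage of ethanol (5 g/kg, 33% v/v) and pair-fed mice one of maltose-dextrin, 9 hours before death. Each of the 6 groups had 3 libraries. Whether every library came from its own mouse is not stated in the labels, and p-values therefore measure the spread between libraries, which may be technical.

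XBP1 is the transcription factor at the end of the IRE1 branch of the unfolded protein response. IRE1, the ER sensor kinase and nuclease encoded by Ern1, removes a short intron from Xbp1 RNA, and the spliced RNA encodes the active factor, which induces genes of ER folding, translocation and degradation. ERAD takes misfolded proteins of the ER back to the cytosol, where they are ubiquitinated and degraded by the proteasome. Its best known ligase complex holds the ubiquitin ligase SYVN1 (also called HRD1), its adaptor SEL1L, the membrane protein HERPUD1 and the Derlin proteins. Hepatocytes secrete much of the protein of plasma and rely on both systems. The panel reads 1 amplicon per gene, so the level of Xbp1 RNA was measured and its splicing was not. Since each gene has its own amplicon, levels were compared between libraries and not between genes.

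Upstream sequences of 9 of the 10 listed genes were found in the RefSeq promoter table (build GRCm38.p6), Derl1 being the one without an entry. The 250 bases before the start were searched on both strands for the ER stress response element ERSE (CCAAT, any 9 bases, CCACG), for ERSE-II (ATTGG, any 1 base, CCACG), for the unfolded protein response element core TGACGTG and for the short site CCACG, which lies inside both ERSE and ERSE-II. The sequences of Syvn1 (chr19:6046326-6046575 on the plus strand) and Herpud1 (chr8:94386179-94386428 on the plus strand) are shown first. Their sequences hold the only exact matches to a whole element inside the searched windows of the listed genes. Those of Sel1l (chr12:91849158-91849407 on the minus strand) and Pdia5 (chr16:35490874-35491123 on the minus strand) are shown because these genes were higher in ethanol-fed overexpression livers, and that of Xbp1 (chr11:5520391-5520640 on the plus strand) because its RNA followed the diet. Each is written 5′ to 3′ on the strand of the gene and ends at the base before the start, with capitals for the fixed letters of ERSE, ERSE-II or the short site.
Syvn1: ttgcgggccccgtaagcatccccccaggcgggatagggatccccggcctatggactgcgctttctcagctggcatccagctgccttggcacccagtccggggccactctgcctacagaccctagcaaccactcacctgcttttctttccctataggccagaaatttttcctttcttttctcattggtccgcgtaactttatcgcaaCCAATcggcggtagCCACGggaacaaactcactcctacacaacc
Herpud1: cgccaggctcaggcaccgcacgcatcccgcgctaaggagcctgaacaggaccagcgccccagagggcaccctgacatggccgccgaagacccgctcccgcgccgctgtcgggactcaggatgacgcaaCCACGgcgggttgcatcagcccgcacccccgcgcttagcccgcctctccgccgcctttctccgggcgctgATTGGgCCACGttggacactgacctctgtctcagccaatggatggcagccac
Sel1l: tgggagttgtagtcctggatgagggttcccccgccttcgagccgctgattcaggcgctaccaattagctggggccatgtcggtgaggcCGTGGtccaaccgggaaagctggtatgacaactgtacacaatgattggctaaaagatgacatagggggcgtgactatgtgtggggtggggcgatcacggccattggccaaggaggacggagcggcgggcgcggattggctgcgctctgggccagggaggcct
Pdia5: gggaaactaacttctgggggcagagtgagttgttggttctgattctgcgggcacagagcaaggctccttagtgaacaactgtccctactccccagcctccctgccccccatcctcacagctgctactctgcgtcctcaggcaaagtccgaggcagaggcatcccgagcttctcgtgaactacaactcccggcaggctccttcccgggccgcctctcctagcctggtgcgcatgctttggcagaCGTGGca
Xbp1: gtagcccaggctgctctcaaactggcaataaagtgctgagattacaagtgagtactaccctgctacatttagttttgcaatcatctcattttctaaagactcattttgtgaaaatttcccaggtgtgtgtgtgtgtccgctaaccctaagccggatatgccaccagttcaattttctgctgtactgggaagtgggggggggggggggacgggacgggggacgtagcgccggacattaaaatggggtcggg

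Syvn1 held an exact ERSE from base -44 to base -26, counted back from the start, and Herpud1 an exact ERSE-II from base -52 to base -42. The Herpud1 window also ends in CCAAT, 9 bases and CCAC, which is ERSE without its last letter. Bases past the start were not searched, so a site that crosses it was not counted. Of all 32851 upstream windows of the table, 0.11% held ERSE and 0.03% held ERSE-II. The short site CCACG was present in 7 of the 10 windows of the listed genes (Derl2 has a pair), and in 28.34% of all windows. No listed gene had the core TGACGTG in this window, and 1.65% of all windows did. These matches are letters in a window and do not show binding.

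**Figure D1:**
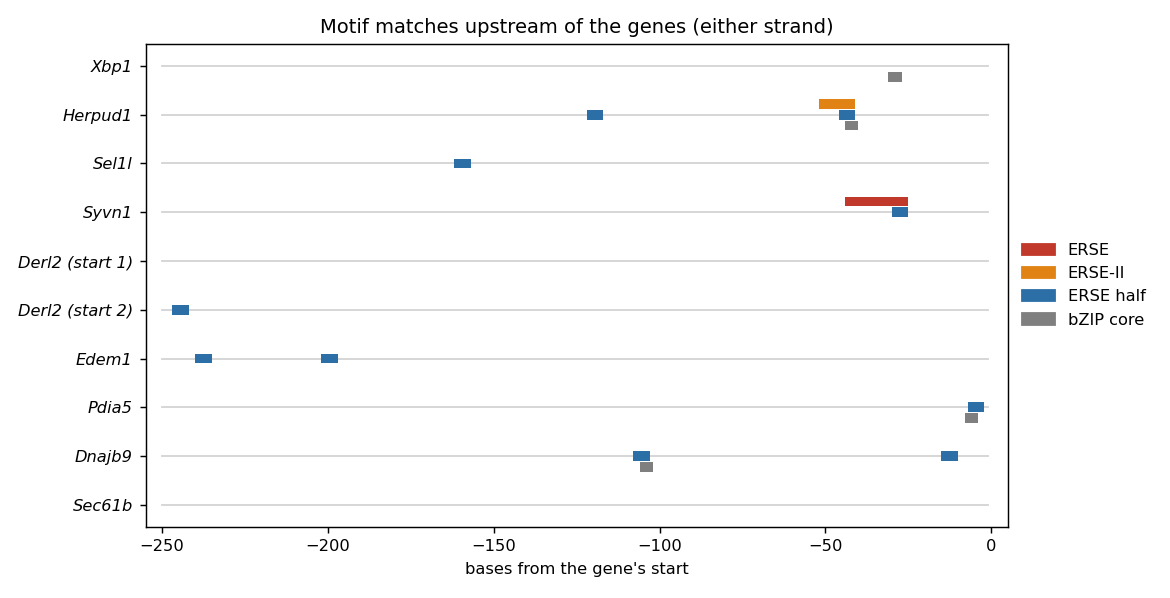
Positions of motif matches in the 250 bases upstream of the listed genes, with the distance from the start in bases on the x axis and 1 line per start site (Derl2 has a pair). Colored bars mark ERSE, ERSE-II, the short site CCACG and the bZIP core ACGT on either strand, and the whole elements lie close to the starts of Syvn1 (base -44 to -26) and Herpud1 (base -52 to -42).

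Libraries held 4.68 to 5.81 M reads (median 5.47 M). The member with the fewest reads in any library had 327 of them, so counting error was small beside the spread between libraries: the coefficient of variation within a group of 3 had a median of 22.2%, against 1.3 to 5.0% for counting alone. Yap1 was low in all 6 knockout libraries (3.34 to 15.1 CPM, the reads of a gene scaled to the same total in every library), and 1 library labelled pair-fed overexpression (replicate 1) had 57.6 CPM, within the range of the control libraries (51.5 to 66.6 CPM). By Xist and Ddx3y the 3 pair-fed knockout libraries and pair-fed control replicates 2 and 3 carried X-inactivation RNA, and the other 13 libraries carried Y-linked RNA, while the labels give no sex. In the ethanol response of knockout mice, diet and sex chromosome genes can therefore not be told apart. Ethanol-fed overexpression replicate 3 stood apart from the other libraries in these genes: it was the highest of the 18 libraries for 6 of the 9 members. It also had 4114 CPM of Hspa5, the main ER chaperone, against 1446 and 1516 CPM in the other libraries of its group, while its Yap1 was the lowest of the group (106.4 CPM against 144 and 115.3 CPM). Results that rest on it are given with and without it, apart from correlations and the sizes of interactions. The hepatocyte markers were abundant in every library (7 of 8 listed markers in the files, summed level 37648 to 75730 CPM). Those of B and plasma cells, which carry a large secretory apparatus, summed to 1.33 to 15.9 CPM, with Tnfrsf17 and Ms4a1 under 1 CPM in all 18 libraries.

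**Figure D2:**
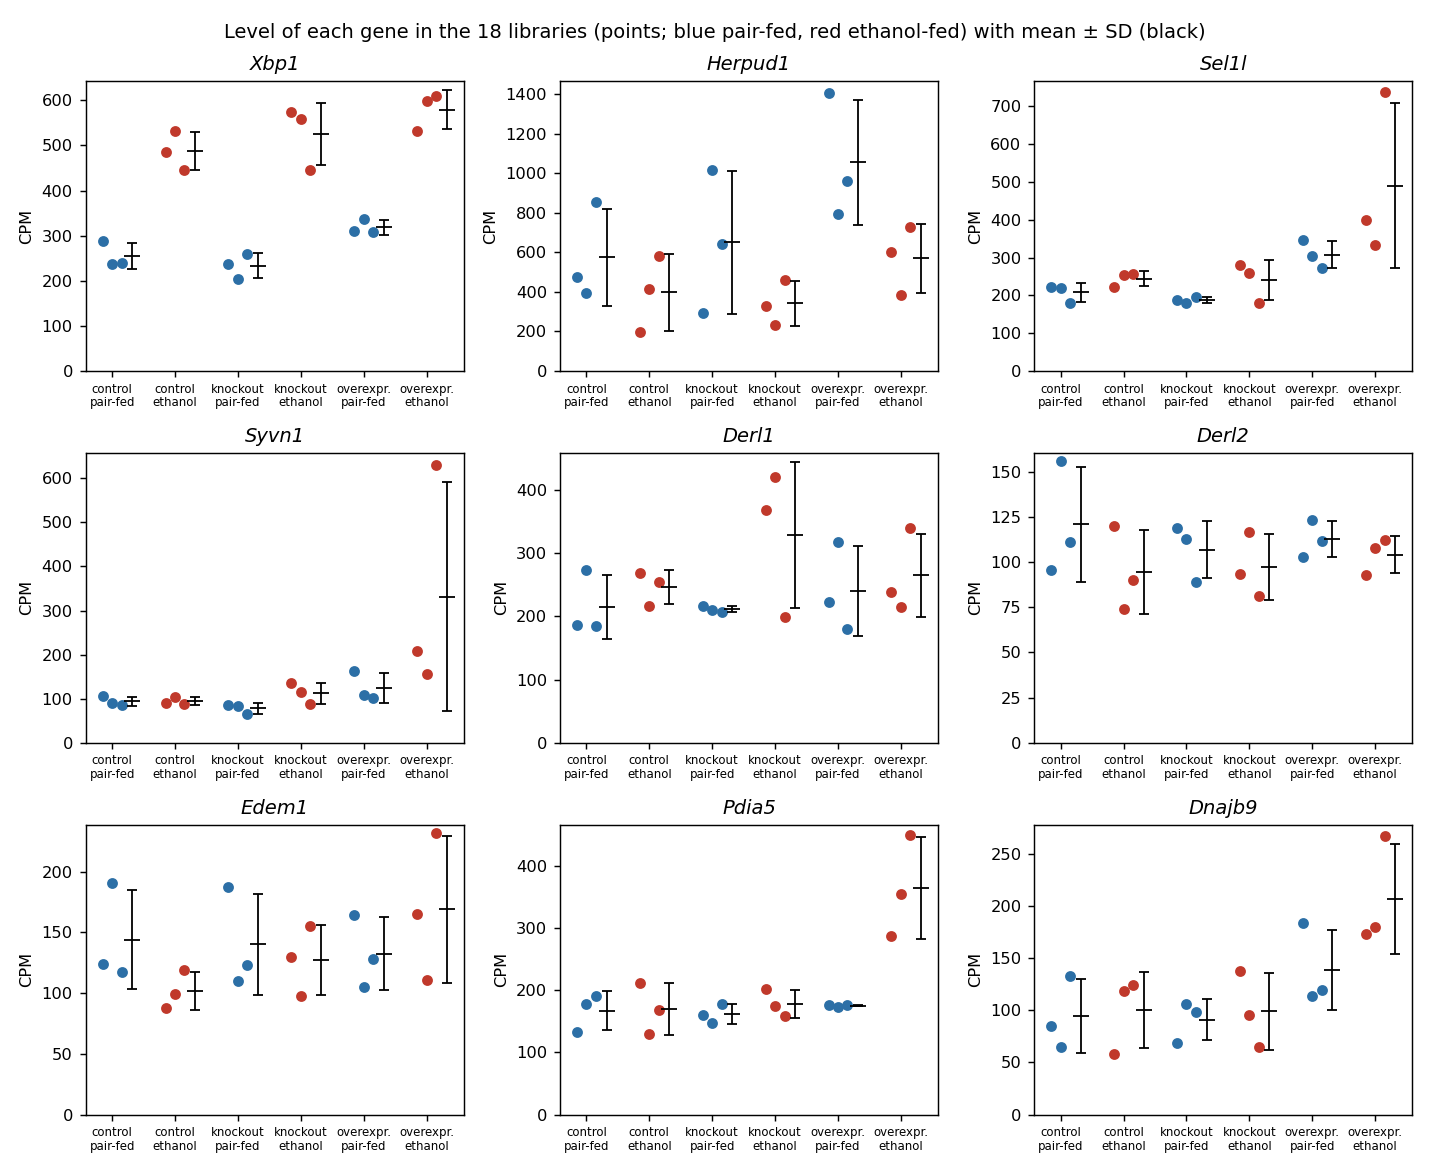
Level of each of the 9 genes in CPM (y axis, from 0) in the 6 groups (x axis), with a point for each library and the mean ± SD of the 3 libraries in black. Xbp1 separated the pair-fed (204 to 337 CPM) from the ethanol-fed libraries (446 to 609 CPM), and the other 8 genes overlapped between the diets. The share of all genes that separate in this way was not counted.

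Xbp1 was the one member called higher with ethanol (limma adjusted p under 0.05) in all 3 genotypes. In control mice it stood at 288, 238 and 240.2 CPM in the pair-fed and at 485, 532 and 446 CPM in the ethanol-fed libraries. In knockout mice it went from 238, 204 and 260.04 CPM to 573, 558 and 446 CPM, and in overexpression mice from 309, 337 and 309 CPM to 531, 599 and 609 CPM. Every ethanol-fed library lay above every pair-fed library over all 18. The share of all genes that separate in this way over all 18 was not counted. All libraries with X-inactivation RNA were pair-fed. Within a genotype, groups of 3 without overlap in this direction were found for 7.69% of all genes in control, 11.7% in knockout and 7.83% in overexpression mice. The rise was 0.93 ± 0.15 on the log2(CPM + 1) scale (estimate ± SE) in control mice, or 1.91-fold (95% interval 1.53 to 2.38; limma with Benjamini-Hochberg over 11720 genes, adjusted p = 0.00402). It was 1.16 ± 0.15 in knockout mice (2.24-fold, adjusted p = 0.000221) and 0.86 ± 0.15 in overexpression mice (1.82-fold, adjusted p = 0.0118). At an adjusted p under 0.05, 2.70% of all genes were called in the control, 9.90% in the knockout and 1.15% in the overexpression response, where Xbp1 was the sole called member in the first 2 and joined by Pdia5 in the third. Kupffer cell markers moved with the knockout response: their sum was 438 to 543 CPM in pair-fed and 155 to 198 CPM in ethanol-fed knockout livers, and 7 of 8 were called lower (median -1.46). Their part in the results of that response was not tested.

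The ethanol rise of Xbp1 did not differ between genotypes beyond the error of the fit. The interaction was 0.23 ± 0.22 for knockout (95% interval -0.22 to 0.69, limma adjusted p = 0.939) and -0.07 ± 0.22 for overexpression (-0.53 to 0.38, adjusted p = 0.981). With sex chromosome genes as a term the rise was 0.75 in control (adjusted p = 0.18) and 0.89 in knockout mice (adjusted p = 0.415), both no longer called. That term rests on 1 pair-fed control library against the other 2, since no other group holds both kinds. In overexpression mice, where all 6 libraries carried Y-linked RNA, the rise stayed at 0.86 (adjusted p = 0.00866). The overexpression call was lost without pair-fed replicate 1 or 3 or ethanol-fed replicate 2 or 3, with values of 0.82 to 0.92 over the 6 libraries left out in turn, while the control and knockout calls held with each library left out. By level, the groups followed the order pair-fed knockout, pair-fed control, pair-fed overexpression, ethanol-fed control, ethanol-fed knockout and ethanol-fed overexpression. The pair-fed overexpression libraries did not overlap with the group below or above them. The ranges of the 3 ethanol-fed groups overlapped with their neighbours, as did those of the pair-fed knockout and control groups.

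On a given diet Xbp1 was not called in any comparison of genotypes. Pair-fed overexpression libraries lay above the pair-fed controls without overlap (0.32 ± 0.15, limma adjusted p = 0.593), and with sex chromosome genes as a term the difference was 0.14. Among ethanol-fed libraries the difference was 0.25 ± 0.15 for overexpression against control (95% interval -0.07 to 0.57), 0.10 ± 0.15 for knockout against control (-0.22 to 0.42) and 0.15 ± 0.15 for overexpression against knockout (-0.17 to 0.47). The RNA of Ern1, which encodes the enzyme that splices Xbp1 RNA, gave no call in any of the 3 ethanol responses (0.43 ± 0.34, 0.73 ± 0.34 and 0.21 ± 0.34 in control, knockout and overexpression mice; adjusted p = 0.545, 0.182 and 0.836).

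**Figure D3:**
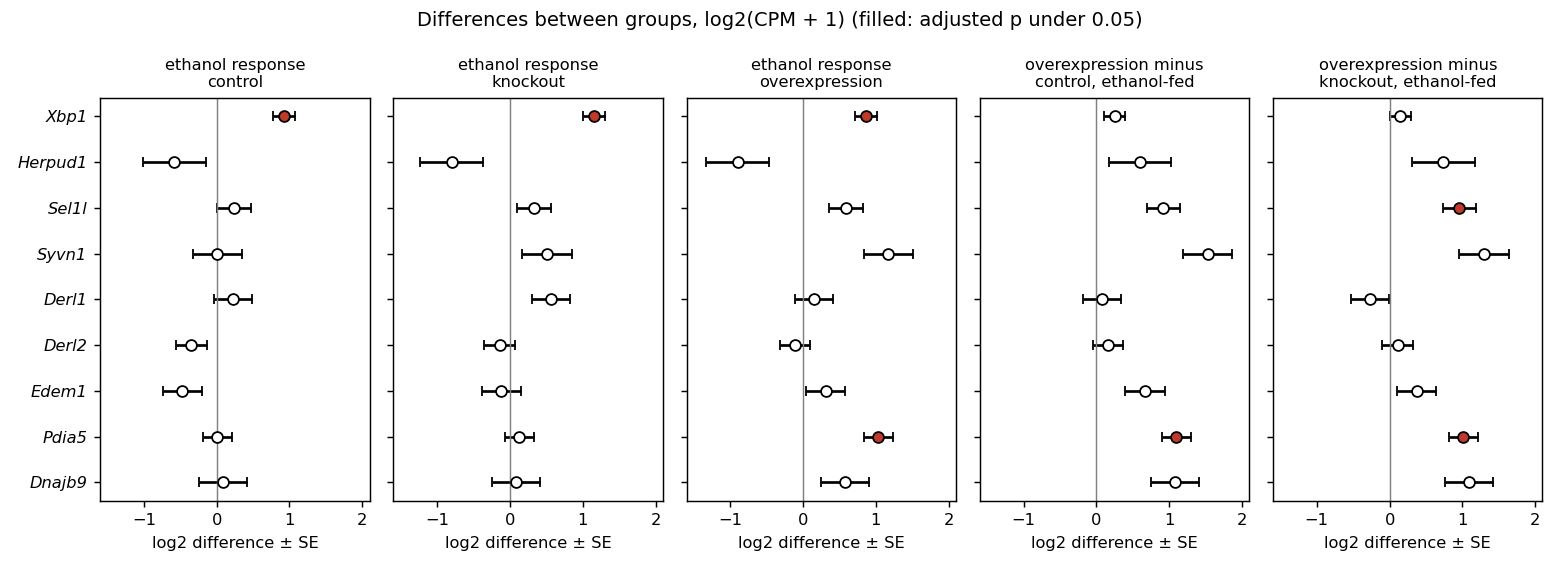
Differences between groups for the 9 genes on the log2(CPM + 1) scale (x axis, estimate ± SE from limma), 1 panel for each of 5 comparisons (the ethanol response in the 3 genotypes, and ethanol-fed overexpression against control and against knockout), with filled points for an adjusted p under 0.05. Xbp1 is filled in the 3 ethanol responses, Pdia5 in the ethanol response of overexpression mice and in both comparisons of ethanol-fed overexpression livers, and Sel1l in that against knockout.

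In control mice no ERAD gene of the list was called beside Xbp1. Syvn1, the ubiquitin ligase, stood at 105.01, 91.2 and 85.3 CPM in pair-fed and at 90.3, 104.7 and 87.6 CPM in ethanol-fed control livers. Sel1l, its adaptor, stood at 223, 220.4 and 179.6 CPM and at 222, 255 and 257 CPM. Both pairs of groups overlapped, with differences of 0.01 ± 0.34 for Syvn1 and 0.24 ± 0.23 for Sel1l (limma adjusted p = 0.995 and 0.638). Beyond Xbp1, the 8 other members had ethanol differences of -0.58 to 0.24 in control mice and the 9 members together a median of 0.01, beside -0.09 over all genes tested. None of the 8 reached an unadjusted p under 0.05, and edgeR likewise called Xbp1 alone.

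In ethanol-fed overexpression livers 4 members, Pdia5, Syvn1, Sel1l and Dnajb9, were higher in 3 of 3 libraries than in every ethanol-fed control and every ethanol-fed knockout library. Groups that do not overlap in this direction were found for 7.43% of all genes against control and for 8.94% against knockout. Of the 4 genes, limma called Pdia5 in both comparisons and Sel1l against knockout, and all 9 members had positive differences from control (median 0.67, beside 0.00 over all genes). Without ethanol-fed overexpression replicate 3 the median was 0.42, with 8 of 9 positive and 0 called by limma. The share of called genes was 0.102% against control and 1.88% against knockout. Summed hepatocyte markers moved with this comparison: they were 37961 to 42148 CPM in ethanol-fed overexpression, 50314 to 66390 CPM in ethanol-fed control and 47825 to 61614 CPM in ethanol-fed knockout livers. In pair-fed overexpression livers these markers summed to 37648 to 45820 CPM. Their part in the result was not tested, and in bulk tissue fewer cells of a type cannot be told apart from less RNA per cell.

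Pdia5 encodes a protein disulfide isomerase of the ER that has been reported to act on the disulfide bonds of ATF6. It was flat across 5 of the 6 groups and high in one. In pair-fed controls it stood at 132.5, 179 and 191 CPM, in ethanol-fed controls at 212, 129.4 and 169 CPM. In knockout livers it stood at 160.4, 147 and 178 CPM when pair-fed and at 202, 175 and 158 CPM when ethanol-fed. Pair-fed overexpression livers had 176, 174 and 176 CPM. Ethanol-fed overexpression livers had 288, 354 and 451 CPM, above each of the other 15 libraries. The difference was 1.03 ± 0.20 from pair-fed overexpression (2.04-fold, 95% interval 1.53 to 2.72; limma adjusted p = 0.0171), 1.10 ± 0.20 from ethanol-fed control (2.14-fold, adjusted p = 0.0352) and 1.01 ± 0.20 from ethanol-fed knockout (2.01-fold, adjusted p = 0.0117).

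The comparison of Pdia5 with control was the least firm of the 3. Its adjusted p ran from 0.00687 to 0.0924 over 12 other settings and 5 of them lost the call, while the values stayed between 1.05 and 1.21. Without ethanol-fed overexpression replicate 3 the difference was 0.93 from control (adjusted p = 0.191), 0.85 from knockout (0.0687) and 0.86 from pair-fed overexpression (0.0949), so each call ended although the values kept most of their size. The call against control was also lost without ethanol-fed control replicate 2 or 3 or overexpression replicate 2, and the ethanol response without pair-fed overexpression replicate 1 or 3 or ethanol-fed replicate 2. In both barcode ranges that hold ethanol-fed control and overexpression libraries Pdia5 was higher in overexpression (354 against 212 and 129.4 CPM, and 451 against 169 CPM). The ethanol response of Pdia5 was larger in overexpression than in control mice by 1.02 ± 0.28 (95% interval 0.43 to 1.60), a difference that reached an unadjusted p of 0.0018 and an adjusted p of 0.281. This value includes ethanol-fed overexpression replicate 3, and 0 members were called in this interaction with or without that library.

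Syvn1 and Sel1l, the ligase and its adaptor, were higher in ethanol-fed overexpression livers with a wide spread set by 1 library. Syvn1 stood at 208, 155 and 629 CPM there, against 90.3, 104.7 and 87.6 CPM in ethanol-fed control and 136, 114.1 and 87.4 CPM in ethanol-fed knockout livers. The difference was 1.53 ± 0.34 from control and 1.30 ± 0.34 from knockout (limma adjusted p = 0.0997 and 0.0563), and edgeR called it against knockout. Without overexpression replicate 3 it was 0.93 and 0.70 (adjusted p = 0.306 and 0.187). Sel1l stood at 399, 332 and 739 CPM, against 222, 255 and 257 CPM in control and 279, 261 and 180.2 CPM in knockout livers. It was higher by 0.92 ± 0.23 than control (adjusted p = 0.146) and by 0.96 ± 0.23 than knockout (1.95-fold, adjusted p = 0.0357). The call against knockout was kept in 1 of the 6 fits that left out a library of the groups compared: without overexpression replicate 3 the value was 0.62 (adjusted p = 0.158), and it was also lost without overexpression replicate 1 or any knockout library. Of the 12 other settings 3 lost it, with an adjusted p of up to 0.107.

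On the pair-fed diet Sel1l stood higher in all 3 overexpression libraries than in the controls, at 346, 305 and 273 CPM against 223, 220.4 and 179.6 CPM. The groups did not overlap, which held for 2 of the 9 members (Xbp1 the other) and for 6.27% of all genes, and the difference of 0.57 ± 0.23 was not called (limma adjusted p = 0.501). Syvn1 overlapped there (163, 107.6 and 101.6 CPM against 105.01, 91.2 and 85.3 CPM). The highest pair-fed overexpression library for both genes was replicate 1 (346 and 163 CPM). Its Yap1 of 57.6 CPM lay within the range of the control libraries. All 3 overexpression libraries carried Y-linked RNA, while pair-fed control replicates 2 and 3 carried X-inactivation RNA. In pair-fed knockout livers Sel1l stood at 187, 179 and 196 CPM and Syvn1 at 86.3, 83.8 and 64.4 CPM, each group overlapping with the controls. Over the 18 libraries the levels of Syvn1 and Sel1l ran together more closely than those of any other pair of the 36 pairs of members (Pearson r = 0.94 over 18 libraries that share 6 groups). After the group means were taken out, r was 0.91, also the highest of the 36, whose median was 0.16. Both values of r include ethanol-fed overexpression replicate 3, the highest of the 18 libraries for both genes (629 CPM of Syvn1 and 739 CPM of Sel1l). The correlation without that library was not computed.

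Dnajb9, which encodes the BiP cochaperone ERdj4, was also higher in ethanol-fed overexpression libraries than in either other ethanol-fed group. It stood at 173, 179.96 and 268 CPM in ethanol-fed overexpression livers, against 58.3, 118.4 and 124.6 CPM in control and 138, 95.2 and 64.5 CPM in knockout livers. The groups did not overlap, and the differences of 1.08 ± 0.33 and 1.09 ± 0.33 were not called (limma adjusted p = 0.259 and 0.0928). Without overexpression replicate 3 they were 0.88 and 0.89 (adjusted p = 0.682 and 0.304). In pair-fed overexpression livers it stood at 183, 113.4 and 119.7 CPM, overlapping with the controls (85.1, 64.4 and 133 CPM).

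Herpud1, the membrane scaffold of the complex and a known target of ATF6 and ATF4 as well as XBP1, had lower mean levels with ethanol in each genotype, as had Derl2, and no response was called. In control livers it stood at 478, 394 and 854 CPM on the pair-fed and at 197, 415 and 583 CPM on the ethanol diet. In knockout livers it stood at 293, 1015 and 644 CPM and at 331, 235 and 461 CPM, again with overlap. In overexpression livers the diets did not overlap (14.6% of all genes did so in this direction), at 1407, 797 and 963 CPM against 602, 382 and 727 CPM. The differences were -0.58 ± 0.43, -0.80 ± 0.43 and -0.90 ± 0.43 (limma adjusted p = 0.513, 0.246 and 0.351). Its replicates varied 1.77-fold to 3.47-fold within a group, and its coefficient of variation was the highest of the members in 4 of the 6 groups. Against Xbp1 its Pearson r over the 18 libraries was -0.42, the lowest of the 36 pairs. Library weights were the one setting that called Herpud1, in the knockout response (-1.13, adjusted p = 0.0338).

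The Derlin genes encode membrane proteins of the channel through which ERAD substrates leave the ER, and neither was called in any comparison. Derl1 stood at 367, 420.1 and 199 CPM in ethanol-fed knockout livers, so that 2 of them were the highest of all 18 libraries and the third lay below every ethanol-fed control (269, 217 and 255 CPM). Pair-fed knockout livers had 217, 209.6 and 207 CPM. The ethanol response of knockout mice was 0.57 ± 0.26 (limma adjusted p = 0.171), and without ethanol-fed replicate 3 it was 0.89 and called (adjusted p = 0.0247). Derl2 varied least over the groups, with group means of 94.5 to 121 CPM and 1.28-fold between the highest and the lowest. Its differences over the 8 comparisons of 2 groups ran from -0.35 ± 0.21 in the ethanol response of control mice to 0.16 ± 0.21 in overexpression against control on ethanol.

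Edem1, which trims mannose from misfolded glycoproteins and marks them for ERAD, was not called in any comparison. It stood at 165, 110.9 and 231 CPM in ethanol-fed overexpression livers and at 87.5, 99.1 and 119 CPM in ethanol-fed controls, and the groups overlapped (0.67 ± 0.27, limma adjusted p = 0.449). Without overexpression replicate 3 the difference was 0.42. In control mice its ethanol difference was -0.47 ± 0.27 (adjusted p = 0.377), with 124, 191 and 117 CPM in the pair-fed livers.

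**Figure D4:**
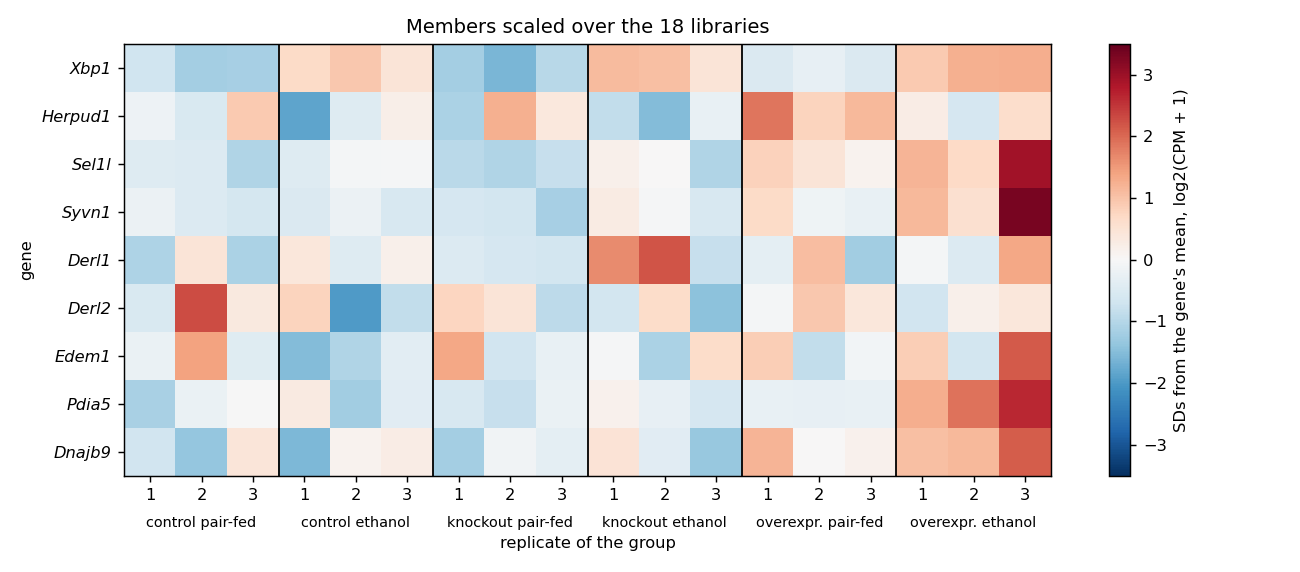
Each gene (rows) in each of the 18 libraries (columns, ordered by group and replicate), as the number of SDs from the gene's own mean of log2(CPM + 1). The Xbp1 row changes with diet in each genotype, and ethanol-fed overexpression replicate 3, in the last column, is 2.11 to 3.33 SDs above the mean for Dnajb9, Edem1, Pdia5, Sel1l and Syvn1.

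In knockout against control livers these genes had no call on either diet. The widest 95% interval was that of Herpud1, at -0.82 to 0.99 pair-fed and -1.04 to 0.76 ethanol-fed. Pair-fed control replicate 1 carried Y-linked RNA and the pair-fed knockout libraries did not, and Cre virus was given at the lower dose. In the pair-fed comparison the 9 differences ran from -0.27 to 0.08 (smallest limma adjusted p 0.999), and 0.00853% of all genes were called. In the ethanol-fed comparison they ran from -0.14 to 0.35 (smallest adjusted p 0.778), with 0.0171% of all genes called. On both diets 0 members reached an unadjusted p under 0.05 and edgeR called 0. Nor was any member called in the interactions of ethanol with genotype, in which 0 genes of all were called: 0 members had an unadjusted p under 0.05 for knockout and 2, Pdia5 and Syvn1 (1.16 ± 0.48), for overexpression, and edgeR called 0 members in each. The interaction with overexpression includes ethanol-fed overexpression replicate 3, and without that library 0 members were called there too. In pair-fed overexpression against control 0 members were called by limma or edgeR, 2 had an unadjusted p under 0.05 (Sel1l, and Herpud1 with 0.91 ± 0.43), and 0.145% of all genes were called.

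The rest of the pathway was read from lists of genes known from other work, chosen with earlier results of these data known. Of 30 other targets of XBP1 (subunits of the translocon, signal peptidase, oligosaccharyltransferase and vesicle coats, and ER cochaperones), 28 were in the files and all were tested. In ethanol-fed overexpression against control livers, 28 of 28 had a positive difference, with a median of 0.59, beside 0.00 over all genes, of which 5855 of 11720 were positive. Summed hepatocyte markers were lower in the overexpression livers, as given above. Limma and edgeR called 0 of the 28 targets, and 21 had an unadjusted p under 0.05. The share of all genes with such a p was not counted. For 21 the groups did not overlap, as for 7.43% of all genes in this direction. Without overexpression replicate 3 the median was 0.40 and 25 were positive. Against knockout 28 of 28 were positive too (median 0.52, beside -0.05 over all genes), and Spcs2, a subunit of signal peptidase, was called. Spcs2 stood at 406, 317 and 681 CPM in overexpression and at 203, 179 and 199.8 CPM in knockout livers (1.19 ± 0.25, limma adjusted p = 0.018). Without overexpression replicate 3 none of the list was called (0 of 28) and 26 were positive, with a median of 0.34. Without knockout replicate 1 or 2 the count was 0 as well.

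The same list had a median of -0.15 in the ethanol response of control mice, with 7 of 28 positive, beside -0.09 and 41.3% over all genes, while Xbp1 itself was higher there. Limma and edgeR called 0 of the list, and 2 had an unadjusted p under 0.05. Its direction rested on 1 library: without pair-fed control replicate 2 the median was 0.03 with 14 positive, and with sex chromosome genes as a term it was 0.05 with 16 positive. In knockout mice the median was 0.06, beside -0.05 over all genes. It was -0.05 without pair-fed knockout replicate 3 and 0.32 with sex chromosome genes as a term. Of the list, 1 gene was called, beside 9.90% of all genes: Sec24d, a subunit of the COPII coat that carries cargo out of the ER, rose from a mean of 66.7 to 141 CPM (1.08 ± 0.24, limma adjusted p = 0.00985). Without pair-fed knockout replicate 2, or with sex chromosome genes as a term, 0 of the list were called. In overexpression mice the ethanol response had a median of 0.43, with 27 of 28 positive, beside -0.07 and 42.4% over all genes. Limma called 0 (10 with an unadjusted p under 0.05, and 1 called by edgeR), and without ethanol-fed overexpression replicate 3 the median was 0.27 with 25 positive. The comparisons of ethanol-fed overexpression livers with the pair-fed, control and knockout groups share the same 3 libraries.

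Of 40 other ERAD genes 37 were in the files and all were tested. With ethanol 0 were called in control mice (4 with an unadjusted p under 0.05, 0 called by edgeR) and 0 in overexpression mice (6 and 0), while in knockout mice 3 rose and 2 fell, beside 9.90% of all genes called. There edgeR called 6, with Rhbdd1 and Ufd1l added and Os9 left out, and with TMM factors limma called 5 higher and 1 lower. Ube2g2, a ubiquitin-conjugating enzyme of ERAD, rose from 62.3 to 131.1 CPM (1.06 ± 0.20, limma adjusted p = 0.00314). Also higher were the ubiquitin ligase genes Rnf185 (1.19 ± 0.28, adjusted p = 0.012) and March6 (0.91 ± 0.23, adjusted p = 0.0181). Os9, the lectin that hands glycoproteins to SEL1L, fell from 214 to 145 CPM (-0.55 ± 0.15, adjusted p = 0.0311; 0.0652 with TMM factors and 0.0781 by edgeR), and Svip, a small inhibitor of ERAD, fell from 11.8 to 4.09 CPM (-1.33 ± 0.28, adjusted p = 0.00576). With sex chromosome genes as a term 0 of the 37 were called. Summed Kupffer cell markers were lower in these ethanol-fed livers, as given above. The count of 5 became 2 without ethanol-fed knockout replicate 1, 3 without ethanol-fed replicate 2 or pair-fed replicate 2, and 8 without ethanol-fed replicate 3.

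In ethanol-fed overexpression against knockout livers 2 of the 37 were called, beside 1.88% of all genes. Sdf2l1, a partner of the ER cochaperones, stood at 44.1, 77.0 and 329 CPM in overexpression and at 14.1, 16.5 and 24.8 CPM in knockout livers (2.47 ± 0.56, limma adjusted p = 0.0276). Its difference was 1.64 and not called without overexpression replicate 3 (adjusted p = 0.126). Svip was higher as well, at a mean of 12.2 CPM against 4.09 CPM in knockout livers (1.29 ± 0.28, limma adjusted p = 0.0201). The same ethanol-fed knockout libraries gave its fall with ethanol, from 11.8 CPM when pair-fed. In overexpression against knockout it was 1.51 without overexpression replicate 3 (adjusted p = 0.0244). The list as a whole had a median of 0.03 there and 0.09 against control, beside -0.05 and 0.00 over all genes. Svip was the 1 called gene of the 36 tested without overexpression replicate 3. Without overexpression replicate 2, or knockout replicate 1 or 2, 0 were called, and without knockout replicate 3 the count was 5, of which 3 were lower.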

How the data were processed

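The authors prepared libraries from liver RNA with the Ion AmpliSeq mouse transcriptome panel, per the labels' protocols. The deposited series table holds CPM for 23930 genes, and the per-library files hold log2(RPM + 1), per the file headers, from the program ampliSeqRNA. The aligner and build behind them: not given in the sources used here. Rows of the table were named from the per-library files, whose values equal log2(CPM + 1) in the same order. Multiplied by the library total, 100.0% of CPM values were whole reads within 0.02 reads. Total reads per library set the precision.

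Kept were 11720 genes that reached 1 CPM or more in 3 or more libraries. With 18 libraries and 6 group means, log2(CPM + 1) was modelled in limma 3.58.1 (eBayes with trend) in R 4.3.3, with 10 two-sided contrasts, Benjamini-Hochberg adjustment over all kept genes within each, and calls at an adjusted p under 0.05. This scale understates changes of low genes. The scripts were tested on simulated data. Alternatives were no filter, a filter of 10 CPM, pseudocounts of 0.1 and 10, TMM factors, quantile normalization, library weights, a replicate block, barcode range or sex chromosome genes as a term, a fit to the compared groups alone, edgeR 4.0.16 on recovered reads, and leaving out each library. Refits of the lists and of their called genes were added after seeing the data. Members, lists and alternatives were chosen with earlier results of these data known. Named list genes are those called, at most 6 per contrast. Genes most like Xbp1, and most like the mean of the scaled members, are the 5 highest by Pearson r among genes with a mean of at least 5 CPM. Hepatocyte, Kupffer cell, B and plasma cell, neutrophil, T cell, endothelial, stellate cell and cholangiocyte markers were summed per library. Some genes that these rules select are not reported here.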

Additional observations from a re-analysis of the deposited data

How the results depend on the processing

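The count of called members was 1 (Xbp1) in the ethanol response of control mice under every setting other than sex chromosome genes as a term, which gave 0. In knockout mice it was 1, with 3 under library weights (Derl1, Herpud1 and Xbp1), 0 with that term and 1 to 2 over the libraries left out. In overexpression mice it was 2, with 3 under library weights (Pdia5, Syvn1 and Xbp1), and 0 to 2 over the libraries left out. For overexpression against control on ethanol it was 1, with 2 under library weights (Pdia5 and Syvn1), and 0 without a filter, under quantile normalization, with the replicate block, with the barcode range as a term and in the fit to the compared groups alone, and it was 0 to 1 over the libraries left out. For overexpression against knockout it was 2, with 1 (Pdia5) without a filter, with the replicate block and in the fit to the compared groups alone, 3 (Pdia5, Sel1l and Syvn1) with TMM factors, library weights and edgeR, and 0 to 3 over the libraries left out. The other 5 comparisons gave 0 members under all settings run. No called member changed sign under any setting. The replicate numbers gave no clear sign of pairing, which 3 libraries per group cannot exclude. Same-numbered libraries deviated together by over 0.1 in 5 of 24 pairs (r from -0.27 to 0.28), and in 0 of 8 comparisons for all 3 numbers. Replicate number matched barcode range in all libraries but ethanol-fed control replicate 1. TMM factors changed the sign of 0 of 90 member differences and quantile normalization that of 1, Derl2 in knockout against control on ethanol. Each member had 327 or more reads in every library, and each group had 3 libraries.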

Other observations

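The ethanol-fed knockout livers were split in the stress genes around Xbp1. Replicates 1 and 2 had 157 and 126.7 CPM of Ern1 and 125.6 and 153 CPM of Ddit3, the gene of the stress factor CHOP, while replicate 3 had 40.1 and 6.71 CPM. Ddit3 was chosen after its values were seen. Derl1 was divided in the same way, with 367 and 420.1 CPM against 199 CPM. Sel1l and Syvn1 were lowest in replicate 3 (180.2 and 87.4 CPM), as were Derl2, Pdia5 and Dnajb9. Herpud1 and Edem1 ran the other way and were highest there (461 and 155 CPM). Xbp1 differed less, with 573 and 558 CPM against 446 CPM, and Atf6 was 195, 175 and 170.4 CPM. Summed Kupffer cell markers were 155 to 198 CPM in these 3 livers, 438 to 543 CPM in pair-fed knockout livers and 269 to 499 CPM in ethanol-fed controls, with all 8 listed markers in the files. Neutrophil markers summed to 1.10 to 40.3 CPM over the 18 libraries (Ly6g, Cxcr2 and Mpo under 1 CPM in each), T cell markers to 1.11 to 7.48 CPM, endothelial markers to 247 to 492 CPM, stellate cell markers to 270.4 to 484 CPM and cholangiocyte markers to 16.5 to 115.5 CPM.

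Of 8448 genes with a mean of at least 5 CPM, those whose levels ran closest to Xbp1 over the 18 libraries included Pla2g12b (Pearson r = 0.95), Lcn2 (0.93), Leprotl1 (0.93) and 2010003K11Rik (0.92). Pla2g12b ranged from 56.4 to 87.8 CPM with pair-feeding and from 99.0 to 131.9 CPM with ethanol, without overlap. Genes closest to the mean of the 9 scaled members were Hspa5 (0.95), Entpd7 (0.91), Creld2 (0.90), Nbas (0.89) and Rint1 (0.87). Creld2 ranged from 37.3 to 945 CPM and Entpd7 from 9.79 to 125.04 CPM over the ethanol-fed libraries. The points share 6 groups and the diet, so these values describe likeness alone.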
